A study of Homo sapiens with 2 samples.

Results

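The Mediator complex was examined in the established human colorectal cancer line DLD-1 after transfection with an siRNA against the transcription factor YY1. Its subunits were taken as all probe sets whose single gene symbol was MED followed by a number and at most 1 further capital letter. This gave 26 genes, each with 1 probe set, out of 17249 protein-coding genes named on the array. MED6, MED24, MED25 and MED26 were not among the named probe sets and were not analysed here. The siControl culture received a non-targeting siRNA and the siYY1 culture an siRNA against YY1, both at 5 nmol/L, and RNA of each was taken after 3 days and measured on 1 whole-transcript array. Both cultures carried the same cell line and the same transfection reagent, and a single YY1 siRNA sequence was used, so effects particular to that sequence cannot be told apart from loss of YY1.

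With 1 array per group there is no replicate error and no test, and every difference below compares these 2 arrays, not the conditions. Values are log2 expression, a scale inferred from their range, after the pair was quantile normalized, and a difference is siYY1 minus siControl, so that 1 unit is 2-fold. No named probe set was assigned to YY1, so the knockdown itself was not measured here and the groups are known from the labels alone. Epithelial markers were present: EPCAM was at 16.29 in siControl and 16.47 in siYY1, and 9 of 12 colorectal epithelial markers were at or above the brightness minimum of 7.31, the median over protein-coding genes of the mean of both arrays. Only 1 of 7 leukocyte markers and 1 of 8 fibroblast and endothelial markers were. Of the 12 epithelial markers 8 were lower in siYY1 and 4, EPCAM among them, higher, with a median difference of -0.12. They ran from CLDN4 at -0.94 to CDX1 at 0.30, and VIL1, CDX1 and LGALS4 were below the brightness minimum. The number of arrays limits the precision, and in RNA of a whole culture fewer expressing cells and less RNA per cell cannot be told apart.

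Mediator is a large assembly that carries signals from DNA-bound activators to RNA polymerase II at promoters. Its head and middle modules contact the polymerase and the general transcription factors, its tail receives most activators, and MED14 runs through the complex as a scaffold. A separable kinase module, built from MED12, MED13, cyclin C and CDK8 or their paralogs, docks on the core and sterically hinders its binding to the polymerase. YY1 is a zinc finger factor that binds many promoters close to their start sites. The tail was divided here into an upper part next to the head and a lower part, and other schemes place some of these subunits differently.

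Core subunits were mostly lower and the MED genes of the kinase module higher in the siYY1 array. Of the 22 core members 17 were below 0, against 50.2% of the 8625 protein-coding genes at or above the brightness minimum (called bright genes), and their median difference was -0.29. The 4 MED genes of the kinase module were all above 0, as were 4296 of the 8625 bright genes. Their median was 0.65, although MED12L among them was dim and at 0.04. With CDK8, CDK19 and CCNC, the cyclin C gene, 6 of 7 were above 0, and CCNC was at -0.12. Over all 26 members the median was -0.20, against -0.0035 for the bright genes. Of the 26, 15 lay inside the 25th to 75th percentile of the bright genes, -0.48 to 0.44. The same 17 core members were below 0 in the values as deposited, after centring each array on its median and after loess on brightness. The bright genes themselves moved with the scaling: 56.6% of them were below 0 in the deposited values and 61.2% after median centring, with medians of -0.12 and -0.19.

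Large differences were no more frequent than elsewhere. At least 2-fold higher were 2 members, MED12 and MED13L, which is 7.69% of the 26 against 7.71% of the bright genes. At least 2-fold lower were also 2, MED16 and MED20, against 8.64% of the bright genes. These shares are at the background, so the counts are no result about Mediator. Over all protein-coding genes, dim ones included, 4.61% were 2-fold higher and 5.67% lower. Of the bright genes past 2-fold 47.2% were higher, and this share was 33.8% in the deposited values and 26.3% after median centring. The SD of the differences was 0.70 over the members and 0.74 over the bright genes. In all, 24 of the 26 lay between the 5th and the 95th percentile of the bright genes, -1.24 and 1.17, and the exceptions were MED16 and MED12. Each gene had a single probe set, so no difference could be checked against another probe set of the same gene.

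**Figure D1:**
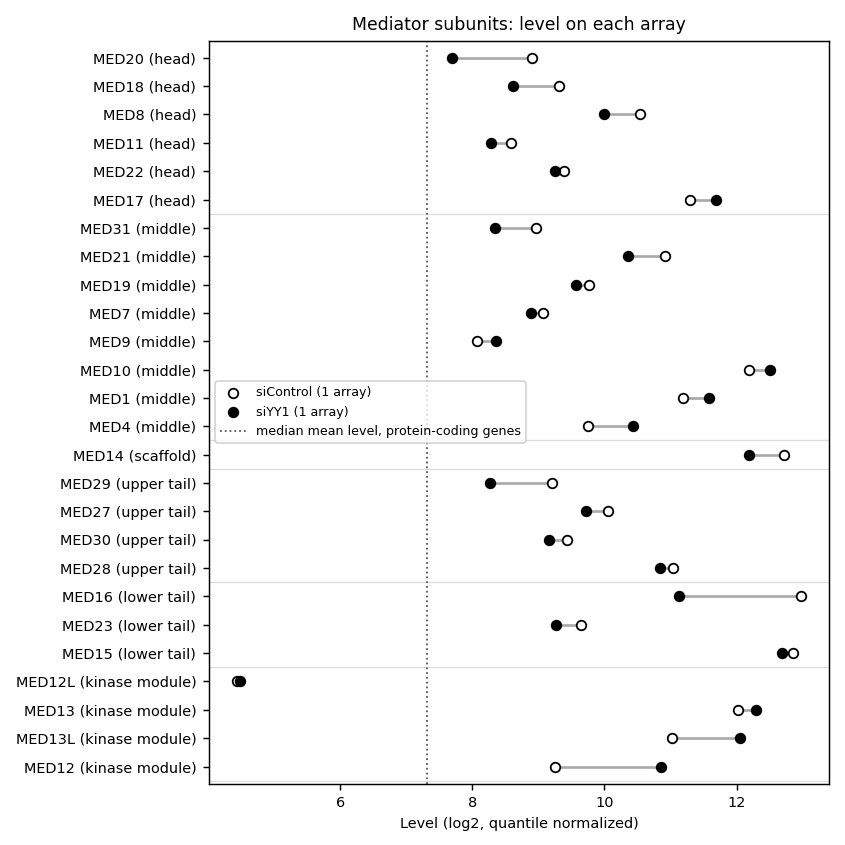
Level of each of the 26 Mediator subunits (log2, quantile normalized) in siControl (open circles) and siYY1 (filled circles), 1 array each, grouped by module. The dotted line is the brightness minimum of 7.31. MED16 and MED20 show the widest gaps to the left and MED12 and MED13L to the right, and MED12L alone lies below the line.

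In the kinase module the widest gap was that of MED12, the subunit that activates CDK8 through cyclin C. MED12 was at 9.26 in siControl against 10.86 in siYY1, a difference of 1.60 or 3.03-fold, and 155 of the 8625 bright genes were as high or higher. MED13 tethers the kinase module to the core. It was at 12.02 and 12.30, a difference of 0.28 that lies inside the middle of the bright genes, whose 25th and 75th percentiles were -0.48 and 0.44. Its paralog MED13L, which can take its place, was at 11.03 and 12.06, a difference of 1.03 or 2.04-fold. That is just past 2-fold, and it was below 2-fold in the deposited values (0.89), after median centring (0.82) and with a trend in genomic span removed (0.95). MED12L, the paralog of MED12, was dim on both arrays, at 4.44 and 4.48, so its difference of 0.04 says little about its expression. The promoters of MED12 and MED13L are shown as the 250 bases before the start site, in the direction of transcription, because these genes had the largest positive differences. They come from RefSeq on GRCh38.p14, at chrX:71118346-71118595 on the plus strand and chr12:116277694-116277943 on the minus strand. Capitals mark ATGGCG or its reverse complement CGCCAT, the core of the YY1 motif.
MED12: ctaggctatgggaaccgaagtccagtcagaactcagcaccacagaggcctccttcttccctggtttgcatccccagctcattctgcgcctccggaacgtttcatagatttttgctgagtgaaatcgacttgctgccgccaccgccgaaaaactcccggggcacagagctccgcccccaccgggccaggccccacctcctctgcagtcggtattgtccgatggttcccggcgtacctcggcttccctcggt
MED13L: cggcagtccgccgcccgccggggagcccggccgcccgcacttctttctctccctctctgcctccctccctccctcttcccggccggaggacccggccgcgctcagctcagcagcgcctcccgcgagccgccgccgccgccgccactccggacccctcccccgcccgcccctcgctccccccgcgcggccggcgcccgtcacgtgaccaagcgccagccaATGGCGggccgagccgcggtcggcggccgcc
The MED12 stretch held no copy of the core in either orientation. The MED13L stretch held 1, just before the start site.

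The kinase module genes with other names were fixed as a list of 3. CDK8, the kinase, was at 9.95 in siControl against 10.98 in siYY1, a difference of 1.03 or 2.04-fold. Its paralog CDK19 was at 9.38 and 9.90, a difference of 0.52. Both kinases were higher in siYY1, but only CDK8 passed 2-fold, and it was below 2-fold in the deposited values (0.90), after median centring (0.83) and without the span trend (0.97). CCNC, which encodes cyclin C, the partner of either kinase, was at 12.76 and 12.64, a difference of -0.12. Across the 7 genes of the module 6 were above 0, with a median of 0.52, and cyclin C was the one below.

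The lower tail held the lowest member. MED16, which lies in the tail beside MED23 and MED24 and takes part in responses to activators, was at 12.98 in siControl against 11.12 in siYY1, a difference of -1.86 or 3.62-fold lower. Only 78 of the 8625 bright genes were as low or lower, and both values were well above the brightness minimum. Its difference ran from -2.07 after median centring to -1.82 without the span trend. MED23, which binds the activator ELK1, was at 9.64 and 9.27, a difference of -0.37. MED15, whose KIX domain binds the sterol regulators SREBP, was at 12.85 and 12.69, a difference of -0.17. MED16 thus stood apart from the other lower tail subunits measured, which were inside the 25th to 75th percentile of the bright genes. The 250 bases before the MED16 start site, the lowest member's, lay at chr19:893188-893437 on the minus strand.
MED16: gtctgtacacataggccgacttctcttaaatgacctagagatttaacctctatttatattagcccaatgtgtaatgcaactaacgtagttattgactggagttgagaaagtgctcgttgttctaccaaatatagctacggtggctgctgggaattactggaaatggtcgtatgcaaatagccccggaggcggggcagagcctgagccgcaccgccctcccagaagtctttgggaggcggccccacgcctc
This stretch held no copy of the core. A copy lay after the start site and is shown further on.

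The upper tail subunits were all below 0. MED29, the counterpart of the fly protein Intersex, was at 9.20 in siControl against 8.27 in siYY1, a difference of -0.94 or 1.91-fold lower. It passed 2-fold in the deposited values (-1.03) and after median centring (-1.10). MED27, which bridges the tail and the head, was at 10.06 and 9.72, a difference of -0.34. MED30, which has no known counterpart in budding yeast, was at 9.43 and 9.16, a difference of -0.27. MED28, which also binds the tumour suppressor merlin, was at 11.04 and 10.85, a difference of -0.20. The median of the 4 was -0.31, and all but MED29 lay between the 25th and 75th percentiles of the bright genes. MED14, the scaffold that touches head, middle and tail, was at 12.72 and 12.19, a difference of -0.53 or 1.44-fold lower.

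In the head, 5 of 6 measured subunits (83.3%) were lower, against 50.2% of the bright genes, and the median was -0.42. MED20, which pairs with MED18 in the movable jaw of the head, was at 8.91 in siControl against 7.70 in siYY1, a difference of -1.21 or 2.32-fold lower. MED18 itself was at 9.31 and 8.62, a difference of -0.69. MED8, whose tail end anchors the MED18 and MED20 pair, was at 10.54 and 10.00, a difference of -0.54. The 3 jaw subunits were thus all lower, and they were the 3 lowest of the head. MED11, which forms a helical pair with MED22, was at 8.58 and 8.28, a difference of -0.30. MED22 was at 9.39 and 9.25, a difference of -0.14. MED17, the central subunit of the head, was the exception, at 11.30 and 11.68, a difference of 0.38. The MED20 stretch before the start site, shown for the lowest head gene, lay at chr6:41920944-41921193 on the minus strand.
MED20: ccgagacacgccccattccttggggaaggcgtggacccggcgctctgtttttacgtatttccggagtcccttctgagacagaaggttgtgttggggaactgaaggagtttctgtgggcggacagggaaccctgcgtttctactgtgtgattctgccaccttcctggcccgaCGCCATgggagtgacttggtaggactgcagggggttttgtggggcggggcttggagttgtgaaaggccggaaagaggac
It held 1 copy of the core, in the reverse orientation.

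The middle module was divided, with 4 of 8 measured subunits below 0 and 4 above. MED4 and MED9 belong to the same arm of the middle module. MED4 was at 9.76 in siControl against 10.44 in siYY1, a difference of 0.68 or 1.60-fold higher, the highest of the core. MED9 was at 8.07 and 8.35, a difference of 0.28. MED1, which binds nuclear receptors through LXXLL motifs and sits next to MED4 and MED9, was at 11.19 and 11.58, a difference of 0.40. These 3 neighbours were all higher, as was MED10, a subunit of the hook, at 12.19 and 12.51 with a difference of 0.32. On the other side stood the partners of MED7. MED31, which binds the front part of MED7, was at 8.97 and 8.34, a difference of -0.63. MED21, which forms the hinge of the complex with MED7, was at 10.91 and 10.35, a difference of -0.56. MED7 itself was at 9.08 and 8.88, a difference of -0.19. MED19, which also lies in the hook, was at 9.77 and 9.57, a difference of -0.20. The median of the 8 was 0.04, and its sign depended on the scaling: it was -0.07 in the deposited values and -0.14 after median centring. None of the 8 passed 2-fold. All but MED4, MED31 and MED21 lay inside the 25th to 75th percentile of the bright genes, -0.48 to 0.44. The grouping by neighbours, here and in the head, was not planned.

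**Figure D2:**
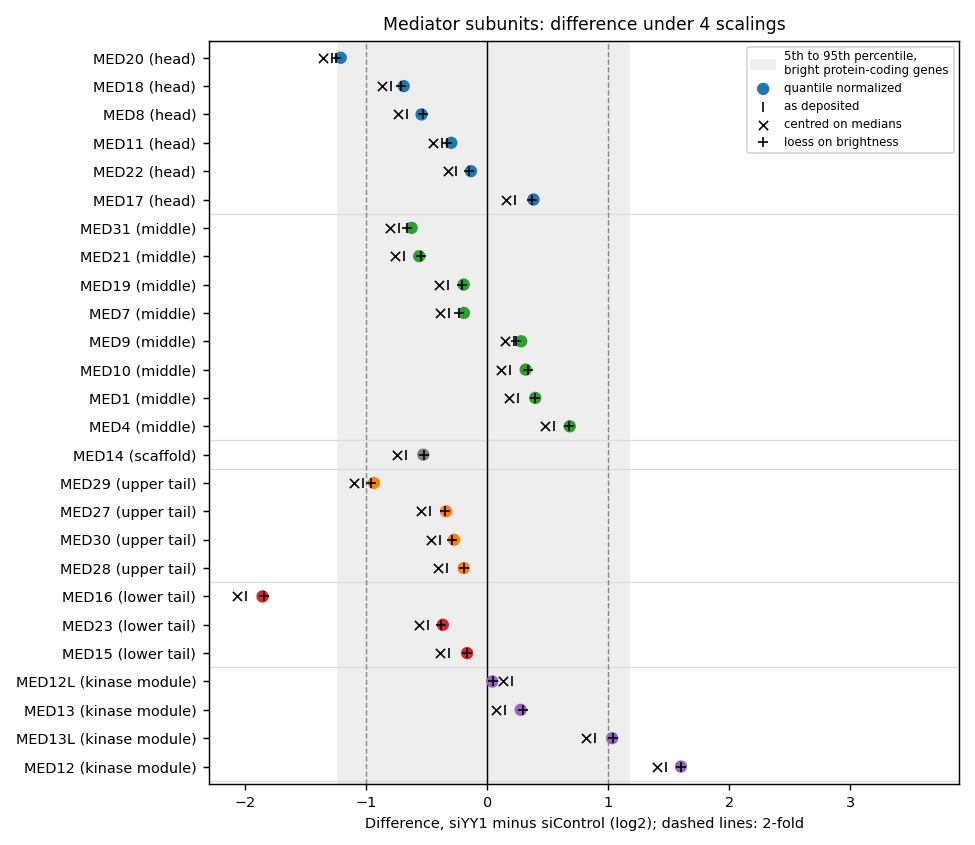
Difference of each Mediator subunit, siYY1 minus siControl (log2), with 4 scalings: quantile normalized (coloured by module), as deposited, centred on array medians, and loess on brightness. The grey band runs from the 5th to the 95th percentile of the bright genes, -1.24 to 1.17, and dashed lines mark 2-fold. Every member keeps its side of 0 under these 4 scalings, while MED13L and MED29 cross the 2-fold lines.

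The paralogs of the kinase module and the members' genomic spans were also set against the differences. Genomic span, the length of the gene on the chromosome, was used because genes with wide spans were higher on the siYY1 array: of 10 equal parts of the bright genes by span, the widest had a median of 0.23 with 16.7% past 2-fold on the higher side, against 0.01 and 3.71% in the narrowest. MED13L spans 319 kb, in the widest part, and MED13 spans 123 kb. MED12L spans 351 kb, but it was too dim to be in any of these parts. MED27, a core gene of 219.8 kb in the same part as MED13L, was at -0.34. MED12 spans 23.9 kb, among genes of 23.6 to 32.1 kb whose median was -0.07. With the span trend removed MED12 was at 1.64. Over the 26 members, the dim MED12L included, the Pearson r of difference with log2 span was 0.27 and the Spearman rho 0.31. Over the 22 core members they were 0.06 and 0.13, and over the 8625 bright genes 0.095 and 0.094. These describe genes measured on the same 2 arrays and are not independent replicates. Protein lengths were not used here, so the part of protein size in the kinase module values was not tested. Whether genomic span has a part in the difference of any member was not tested either.

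**Figure D3:**
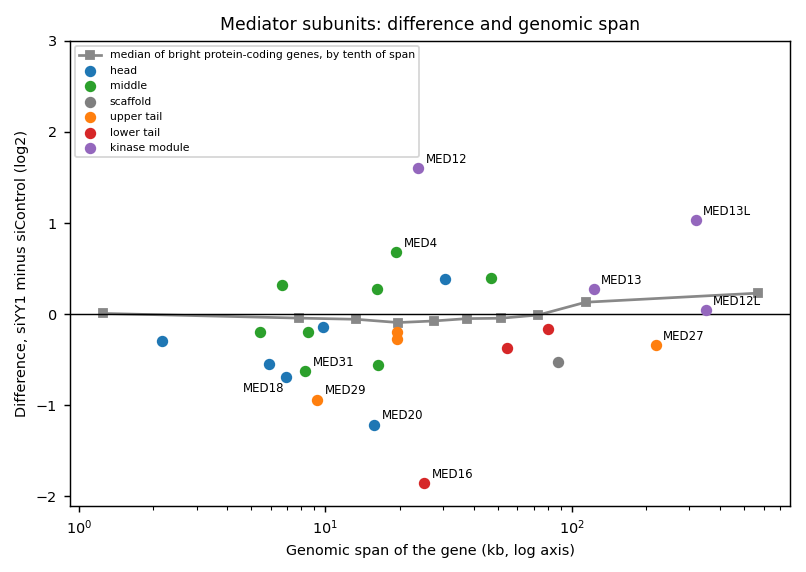
Difference of each Mediator subunit, siYY1 minus siControl (log2), against the genomic span of its gene (kb, log axis), coloured by module. The grey line joins the median differences of the bright genes in 10 equal parts by span. It starts at 0.01 in the narrowest, dips to -0.09 and ends at 0.23 in the widest. MED12 and MED16 have nearly the same span, 23.9 and 25.2 kb, and lie at opposite ends.

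Copies of the YY1 core motif occurred near the start sites of members on both sides of 0. RefSeq promoters, from 250 bases before the start to 50 after, were given for 19 members, MED7 and MED15 with more than 1 start, or 21 windows in all. No entry was found for MED8, MED13, MED14, MED21, MED22, MED28 or MED30. The core ATGGCG or its reverse complement CGCCAT lay in 7 of the 21 windows (33.3%), against 13.1% of 22199 windows of protein-coding genes. The longer motif AANATGGCG or its reverse complement CGCCATNTT, which contains the core, lay in 4 windows (19.0%), against 4.24% of all. In the 250 bases before the start alone, the core lay in 5 of the 21 (23.8%), against 7.19% of all. The longer motif lay in 2 there (9.52%), against 1.55%, since MED16 and MED27 had their matches only after the start. ATG is also the usual start codon, and whether a match overlaps one was not tested. The motifs were chosen after the differences were seen, and a match is a description of letters. Each match is shown as 30 bases in the direction of transcription with the core in capitals. The position given is that of the first base in capitals, counted from the start site and negative before it.
MED18 (first base at -158): gccaaaggaggcCGCCATctttcatacagc
MED20 (first base at -79): ttcctggcccgaCGCCATgggagtgacttg
MED27 (first base at 24): ggcggcggcaacATGGCGgacgtgataaat
MED13L (first base at -31): aagcgccagccaATGGCGggccgagccgcg
MED13L (first base at -4): gcggtcggcggcCGCCATtgctgtcagagc
MED4 (first base at -138): ccggcccaacagATGGCGccggtgtccgca
MED1 (first base at -206): aataaaaaaaaaATGGCGgtttccgcaggg
MED1 (first base at 19): ccgttggggaagATGGCGgcggcctcgagc
MED16 (first base at 26): ttaccgaggaagATGGCGgcgccagacccg
The long motif was present in MED1, MED16, MED18 and MED27, whose differences were 0.40, -1.86, -0.69 and -0.34. MED13L, MED20 and MED4 held the core alone, with differences of 1.03, -1.21 and 0.68. Genes with a match lay on both sides, and MED12, the highest member, had none in its window. Whether YY1 binds at any match, or has a part in these differences through it, was not tested. The ETS core CCGGAAG or its reverse complement CTTCCGG marks many promoters of broadly expressed genes. It lay in 8 of the 21 windows (38.1%), against 12.8% of all. Both MED7 windows, which overlap, were among the 8. The ETS core was found in MED7, MED11, MED15, MED17, MED18, MED29 and MED31, of which MED17 alone was above 0. All of these are core members, of which 17 of 22 (77.3%) were below 0, so the count is near the share of the core.

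Genes that work with Mediator were compared through 3 lists, chosen with earlier results of these data known. The lists kept their few dim genes, while the shares set beside them are of bright genes alone, so these are not like sets. The list of coactivators and activators that contact the complex also held REST, a repressor, and EHMT2, a histone methyltransferase linked to silencing. Of its 20 measured genes 6 were past 2-fold on the higher side, against 7.71% of the bright genes. On the lower side were 0, against 8.64%, and the median was 0.67. EHMT2, at 1.24, was among the 6, while REST was at -0.39. NIPBL, the cohesin loader that binds Mediator, was at 9.20 and 11.31, a difference of 2.11. CREBBP, an acetyltransferase recruited with Mediator to enhancers, was at 11.05 and 13.06, a difference of 2.01. SREBF2, whose product binds MED15, differed by 1.85, and NCOA6, a nuclear receptor coactivator, by 1.74. MED15 itself differed by -0.17 and MED1, the nuclear receptor subunit, by 0.40. The lowest gene of that list was CTNNB1, which encodes beta-catenin, a partner of MED12, at -0.90. It passed 2-fold in the deposited values (-1.08) and after median centring (-1.16).

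General transcription factors and TFIID held 3 of 31 measured genes past 2-fold on each side, with a median of 0.13. That is 9.68% on each side, near the 7.71% and 8.64% of the bright genes, so the count is no result about this list. TAF4, a TFIID subunit, differed by 1.93 and GTF2H5, the small TFIIH subunit, by 1.54. TAF12, the histone-fold partner of TAF4 in TFIID, was on the other side at -1.49, and ERCC2, a TFIIH helicase, at -1.26. Pausing and elongation factors held 1 of 22 past 2-fold on each side, with a median of 0.18. That is 4.55% on each side, below the same shares of the bright genes, and the lower count was 2 in the deposited values, with ELL3 at -1.04, and 3 after median centring, with ELL3 at -1.11 and ICE1 at -1.02. AFF4, the scaffold of the super elongation complex, differed by 1.70, and ICE2, of the little elongation complex, by -1.52. In these lists, as in Mediator, subunits of 1 complex lay on both sides of 0.

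**Figure D4:**
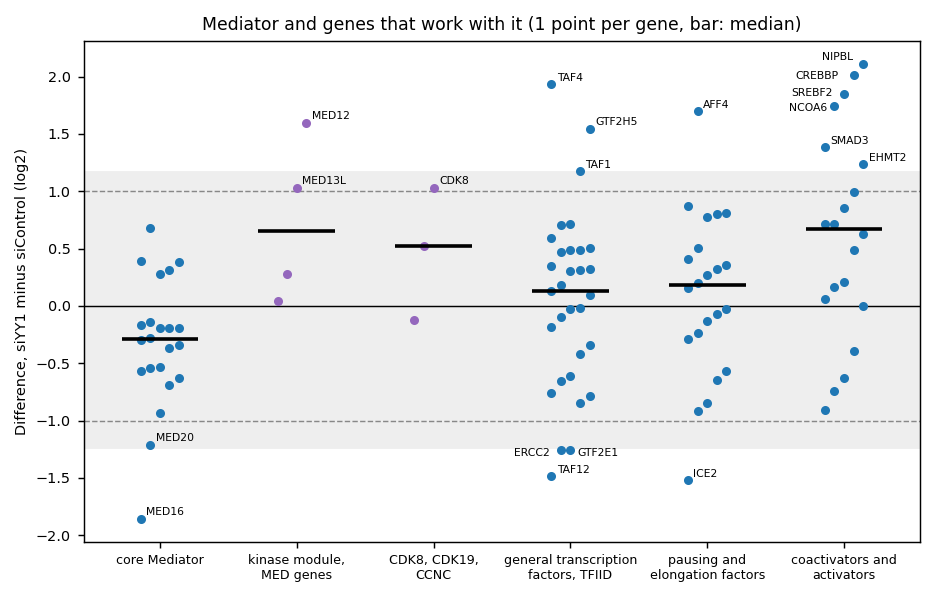
Difference, siYY1 minus siControl (log2), of core Mediator, the kinase module and 3 lists of genes that work with them, 1 point per gene with the median as a bar. The grey band runs from the 5th to the 95th percentile of the bright genes, dashed lines mark 2-fold, and genes past it are named. The medians are -0.29 for the core and 0.65 for the MED genes of the kinase module.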

How the data were processed

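Total RNA of 2 DLD-1 cultures was labelled as biotinylated sense-strand cDNA, per the labels' protocols. The authors deposited 1 log2 value per probe set and array. The scale was inferred from the values, which ran from 2.51 to 17.9, and the software, background correction and normalization behind them are not given in these sources. The 25th, 50th and 75th percentiles of the deposited log2 values differed by 0.18, 0.07 and -0.13 between the arrays, so the pair was quantile normalized.

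A platform annotation named 1 gene for 17709 of 21448 probe sets, and 3739 were unnamed here and left out. Symbols, gene type and genomic span came from the RefSeq table of GRCh38.p14, with probe sets of a gene averaged. Groups follow the sample titles. Bright genes were those with a mean over both arrays at or above 7.31, the median, and genes were counted at 2-fold. Every member is reported. Other genes were named by their place in a fixed list, up to 4 past 2-fold in each. CTNNB1, ELL3, ICE1, REST and EHMT2 were added after their values were seen. The members and lists were chosen with earlier results of these data known. In simulated data for this comparison, all 100 probe sets planted at a log2 difference of 1.5 were past 2-fold, as were all 100 at 3, and 0 of 21248 unchanged ones, among 21448. The simulated noise was small, so this checks the computation alone. Tables and quantile normalization used pandas 2.3.3 and numpy 2.4.6 under Python 3.11.15, loess used statsmodels 0.14.6, correlations scipy 1.17.1, and figures matplotlib 3.10.9.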

Additional observations from a re-analysis of the deposited data

How the results depend on the processing

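The count of members at least 2-fold higher was 2, and 1 in the deposited values, after median centring, with the genomic span trend removed, without MED12L and MED13L, and at 3-fold. The member lost was MED13L. The share of the bright genes that were as high was 5.89% in the deposited values, 4.81% after median centring, 7.72% with the span trend removed and 1.84% at 3-fold, against 7.71%. The count at least 2-fold lower was 2, and 5 at 1.5-fold and 1 at 3-fold, where 21% and 2.12% of the bright genes were as low. It was 3 in the deposited values and after median centring, where MED29 was added and 11.6% and 13.5% of the bright genes were 2-fold lower. The median over the members was -0.20, -0.33 in the deposited values and -0.40 after median centring. These follow the medians of the bright genes, -0.12 and -0.19. Under the other alternatives the counts stayed within 1.5-fold and the median within 0.1. Core members below 0 numbered 17 under every scaling and with the span trend removed, and kinase module members above 0 numbered 4, or 3 with the span trend removed, where MED12L was at -0.04. The span trend, these last counts and those of the lists by scaling were chosen after seeing the data. Removal of a protein length trend was not run, since no protein lengths were given, and no member had more than 1 probe set to be taken alone. No paired analysis was possible because each group is 1 array. Background limits what dim values show, here those of MED12L.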
